A study of Mus musculus with 20 samples.

Results

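The genes described here are 37 genes of apoptosis, necroptosis and pyroptosis, taken by gene name from a table of 13842 protein-coding genes measured in mouse kidney. All 37 names were found. They comprise 4 BCL2-type inhibitors, 7 BH3-only genes (labelled activators in the figures), the pore-forming effector Bak1, 5 genes of mitochondrial release and the apoptosome, 3 inhibitors of apoptosis (IAP genes), 6 genes of death receptors and their complexes, 2 further apoptotic caspases, 2 necroptosis genes and 7 inflammasome and pyroptosis genes. The samples were left kidneys of 20 male mice aged about 8 weeks, collected on day 7 after surgery, with 5 mice in each of 4 groups. KDM6A-TubKO mice (Kdm6afl/Y Pax8Cre+), which carry a floxed X-linked Kdm6a allele and Cre under Pax8, underwent unilateral ureteral obstruction (UUO) or a sham operation. KDM6A-Ctrl mice (Pax8Cre+) underwent the same 2 operations, so that all 20 animals carried Pax8-Cre. By the labels the genotypes differed in the floxed allele, and whether the animals were littermates is not given. Pax8 drives Cre in tubule epithelium, and also in the thyroid, and cells of the interstitium and vessels are not its target. RNA came from whole kidney, and expression is given as FPKM (fragments per kilobase of transcript, scaled to the mapped fragments of the library, a measure per length that allows levels of different genes to be compared). A gene was called changed where its adjusted p in limma was under 0.05, and log2 fold changes are on the log2(FPKM + 1) scale, which understates the change of genes with low FPKM.

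Apoptosis runs through mitochondria, where BH3-only proteins free Bak1 and Bax from BCL2-type inhibitors so that the outer membrane is opened, or through death receptors, which recruit Fadd and Casp8. Necroptosis is a lytic death in which Ripk3 activates Mlkl. Pyroptosis is a lytic death in which inflammatory caspases, activated in inflammasomes or directly by bacterial lipopolysaccharide, cut Gsdmd into a membrane pore; many of these proteins are controlled by cleavage, which RNA levels do not show.

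Kdm6a itself, the gene deleted from tubules, had 0.862 to 1.61 FPKM in KDM6A-TubKO sham kidneys, all below the 1.76 to 2.33 FPKM of KDM6A-Ctrl sham kidneys, while in UUO kidneys the ranges overlapped (2.03 to 4.21 FPKM in KDM6A-TubKO, against 2.28 to 3.67 FPKM in KDM6A-Ctrl). The floxed part is the exon of the JmjC domain, and FPKM of the gene separates neither that exon nor tubule cells from the rest. The authors reported less KDM6A protein in KDM6A-TubKO kidneys and none in isolated tubule cells. The 15 proximal tubule markers were present in every library and all fell after UUO in both genotypes, as did 7 of 9 markers of the loop of Henle and distal tubule. Of the other lists, every measured marker of T and NK cells (10), dendritic cells (6), fibroblasts (9) and injured tubule (10) rose in both genotypes, while for neutrophils 4 and 6 of 6, for B and plasma cells 3 and 2 of 4, for endothelium 4 and 4 of 7, for urothelium 4 and 10 of 10 and for perirenal fat 1 and 1 of 5 rose in KDM6A-TubKO and KDM6A-Ctrl mice in turn. Over all genes, 57.9% and 56.7% rose and 16.7% and 15.1% fell in the same order. Summed FPKM per library was 298467 to 316964 in UUO kidneys and 347739 to 387375 in sham kidneys; the number of reads per library is unknown. KDM6A-Ctrl sham mouse 3 stood apart, with a sum of 1325 FPKM over 10 injured-tubule markers against 408 to 526 FPKM in the other 4 mice of its group. Leaving it out left 28 of the 37 genes called higher and 2 called lower in KDM6A-Ctrl UUO kidneys, as with it. Of all genes, 55.2% were then called higher and 14.4% lower. KDM6A-Ctrl UUO mouse 5 had a sum of 296 FPKM over 5 perirenal fat markers against 27.0 to 63.2 FPKM in the other 4 mice of its group. This mouse also had its group's highest sums of macrophage and monocyte (1323 FPKM), T and NK cell (30.5 FPKM) and endothelial markers (65.4 FPKM). Its proximal tubule sum (3944 FPKM) was the lowest of the group. Without it 5 of the 37 genes rather than 1 were called higher in KDM6A-TubKO UUO kidneys, against 5.29% rather than 2.58% of all genes. The 5 mice of a group are separate animals. Some mice of a group share a full identifier number, and no such number is shared between groups. The labels do not say what it marks, so any part of it cannot be told apart from the group.

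The first comparison, UUO against sham, describes how cell death genes responded to obstruction. In KDM6A-TubKO mice, 28 of the 37 genes rose and 3 fell, against 57.9% and 16.7% of all 13842 genes. The genes that rose in both genotypes include Nlrp3, Aim2, Casp12, Ripk3 and Apaf1. These 5 were in the table only through their UUO levels, as given below, so their rises were built in. For 26 of the 37 the groups did not overlap with UUO on top, and for 2 they did not overlap with UUO below, against 50.1% and 12.6% of all genes. In KDM6A-Ctrl mice, 28 rose and 2 fell, against 56.7% and 15.1% of all genes, and the groups were separate upwards for 25 and downwards for 2, against 45.8% and 10.5%. The median log2 fold change of the 37 genes was 0.88 in KDM6A-TubKO mice and 0.84 in KDM6A-Ctrl mice, beside medians of 0.39 and 0.35 over all genes. Since most of the table rose, the counts of these 37 are to be read beside the shares of all genes, and the 37 were not tested as a set. The share of all genes that rose depended on the scaling. Rescaling to a common upper quartile shifted the median of all genes by -0.23 in either genotype, so that 43.3% of genes rose and 26.5% fell in KDM6A-TubKO mice and 40.6% rose and 25.4% fell in KDM6A-Ctrl mice. Quantile normalization shifted it by -0.43 and -0.40, so that 31.7% rose and 34.9% fell in KDM6A-TubKO mice and 28.8% rose and 35.0% fell in KDM6A-Ctrl mice. Of the 37 genes, 24 and 27 still rose and 4 and 3 fell after upper quartile rescaling, and 21 and 21 rose and 7 and 4 fell after quantile normalization, in KDM6A-TubKO and KDM6A-Ctrl mice in turn, with medians of 0.59 and 0.61 and of 0.48 and 0.47.

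**Figure D1:**
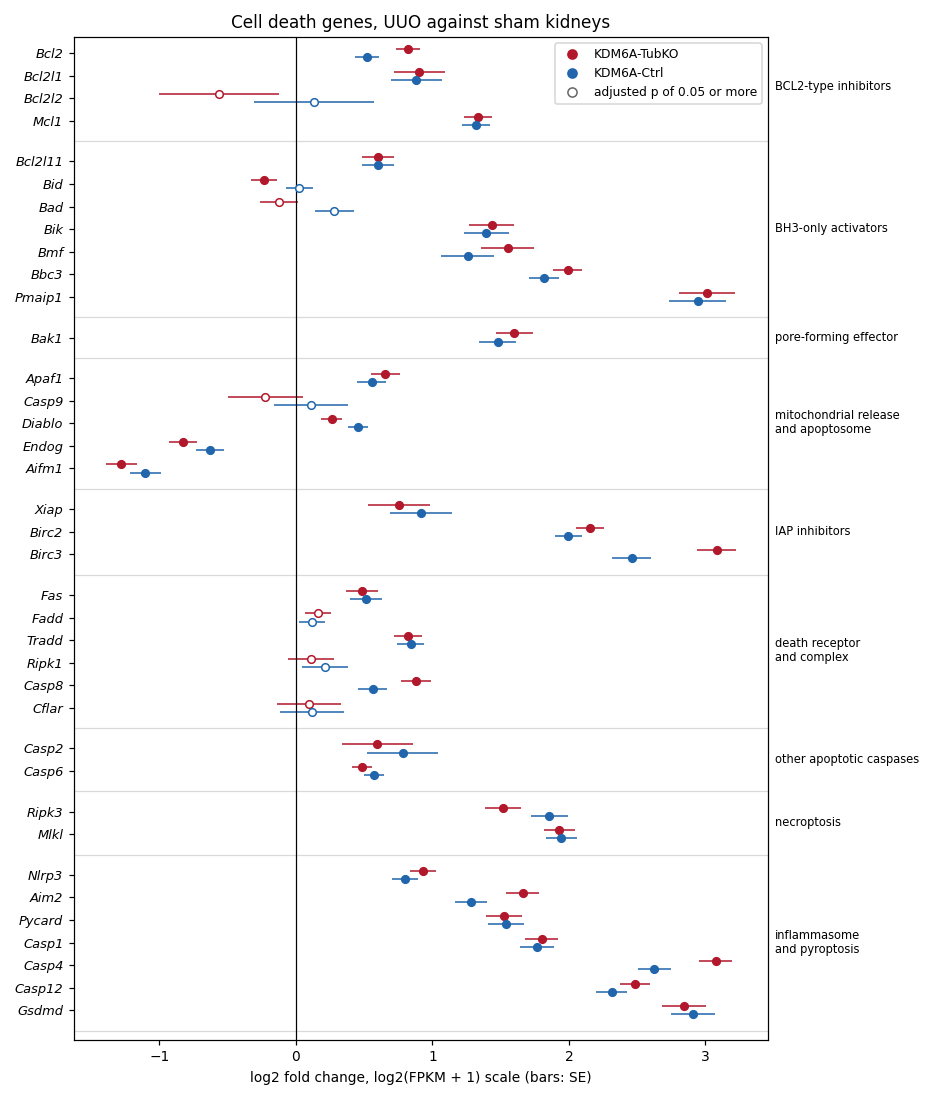
Log2 fold change of the 37 cell death genes in UUO against sham kidneys on the log2(FPKM + 1) scale, with red for KDM6A-TubKO mice, blue for KDM6A-Ctrl mice and bars for the SE. Open circles have an adjusted p of 0.05 or more. Inflammasome and pyroptosis genes lie between 0.80 and 3.08, while Aifm1 and Endog lie below 0 in both genotypes.

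The inflammasome and pyroptosis genes rose together. All 7 rose in both genotypes, with all UUO kidneys above all sham kidneys, and their median log2 fold change was 1.80 in KDM6A-TubKO mice and 1.77 in KDM6A-Ctrl mice. Of all genes, 57.9% and 56.7% rose and 50.1% and 45.8% were separate upwards, in KDM6A-TubKO and KDM6A-Ctrl mice in turn. Nlrp3, Aim2 and Casp12 were in the table only through their UUO levels, so their rises were built in. Casp4, Casp1 and Casp12 are neighbours on chromosome 9 within 74.5 kb (chr9:5298517-5307265 for Casp1, chr9:5308828-5336783 for Casp4 and chr9:5345430-5373032 for Casp12, GRCm38). Casp4 encodes mouse caspase-11, which senses lipopolysaccharide in the cytosol and cuts Gsdmd. Casp4 had 11.7, 10.4, 10.3, 13.1 and 13.9 FPKM in KDM6A-TubKO UUO kidneys, against 0.563, 0.659, 0.505, 0.360 and 0.520 FPKM in KDM6A-TubKO sham kidneys. In KDM6A-Ctrl mice Casp4 had 8.74, 6.57, 6.50, 8.47 and 9.92 FPKM in UUO kidneys, against 0.528, 0.372, 0.852, 0.353 and 0.222 FPKM in sham kidneys. The UUO kidneys were far above the sham kidneys in both genotypes, and no kidney of one surgery came near the other. The log2 fold change was 3.08 ± 0.12 in KDM6A-TubKO mice (SE, adjusted p = 1.64e-12) and 2.62 ± 0.12 in KDM6A-Ctrl mice (SE, adjusted p = 8.95e-12), that is 8.43-fold and 6.16-fold on that scale.

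Gsdmd encodes gasdermin D, the pore-forming protein of pyroptosis, and had 17.5, 16.9, 16.9, 22.1 and 18.7 FPKM in KDM6A-TubKO UUO kidneys, against 1.41, 1.55, 1.58, 1.89 and 2.07 FPKM in KDM6A-TubKO sham kidneys. KDM6A-Ctrl UUO kidneys had 15.6, 18.3, 10.9, 20.5 and 20.2 FPKM of Gsdmd, against 1.62, 1.35, 1.49, 2.02 and 0.575 FPKM in KDM6A-Ctrl sham kidneys. The lowest UUO kidney was still several times as high as the highest sham kidney, and the genotypes overlapped within each surgery. Its log2 fold change by limma was 2.85 ± 0.16 in KDM6A-TubKO mice (SE, adjusted p = 2.73e-11) and 2.91 ± 0.16 in KDM6A-Ctrl mice (SE, adjusted p = 3.31e-11). Casp12, a caspase linked to the endoplasmic reticulum, averaged 7.29 ± 1.33 FPKM in KDM6A-TubKO UUO kidneys and 0.471 ± 0.130 in KDM6A-TubKO sham kidneys (SD, n = 5 each). In KDM6A-Ctrl mice Casp12 averaged 5.61 ± 0.911 FPKM after UUO and 0.323 ± 0.116 after sham surgery (SD, n = 5 each). Its log2 fold changes were 2.48 and 2.31. Casp1, which matures interleukin-1β and interleukin-18, rose by 1.80 in KDM6A-TubKO mice and 1.77 in KDM6A-Ctrl mice, so that the 3 clustered caspases all moved upwards.

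The sensors and the adaptor rose too. Aim2, which binds cytosolic DNA, rose by 1.66 in KDM6A-TubKO mice and 1.28 in KDM6A-Ctrl mice on the log2 scale. Pycard, the adaptor (ASC) that links sensors to Casp1, averaged 8.71 ± 1.12 FPKM in KDM6A-TubKO UUO kidneys and 2.36 ± 0.305 in KDM6A-TubKO sham kidneys (SD, n = 5 each), a log2 fold change of 1.53, beside 1.54 in KDM6A-Ctrl mice. Nlrp3, the sensor of potassium loss and membrane stress, remained the lowest of the 7, at 0.988 ± 0.136 FPKM in KDM6A-TubKO UUO kidneys and 0.0423 ± 0.0449 in KDM6A-TubKO sham kidneys (SD, n = 5 each). It had 0.807 ± 0.344 FPKM in KDM6A-Ctrl UUO kidneys and 0.0253 ± 0.0177 FPKM in KDM6A-Ctrl sham kidneys (SD, n = 5 each), and 3 of the 10 sham kidneys were listed at 0. Nlrp3, Aim2, Casp12, Ripk3 and Apaf1 averaged under 0.5 FPKM in both sham groups, and as no gene in the table averaged under 0.5 FPKM in all 4 groups, a difference was built into the presence of these 5.

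While 57.9% of all genes rose in KDM6A-TubKO and 56.7% in KDM6A-Ctrl mice, all 18 macrophage and monocyte markers rose in both genotypes. Their summed level was 753 to 1165 FPKM in KDM6A-TubKO UUO kidneys and 53.5 to 72.3 FPKM in KDM6A-TubKO sham kidneys, and 617 to 1323 FPKM in KDM6A-Ctrl UUO kidneys and 38.2 to 103 FPKM in KDM6A-Ctrl sham kidneys, with no marker at 0 in any library. In whole-kidney RNA, more or fewer cells of a type and more or less RNA per cell cannot be told apart, and the part of macrophages in these rises was not tested.

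Promoter sequences of the chromosome 9 caspases and of Aifm1 are shown because Casp4 carried the one genotype difference described below, Casp1 and Casp12 are its neighbours, and Aifm1 was the gene that fell most. RefSeq promoters (GRCm38.p6) were found for 33 of the 37 genes, with 47 start sites among them. Each sequence gives the 250 bases before the start, 5′ to 3′ on the gene's strand, with capitals for matches to the kappaB consensus, a motif of 10 bases bound by NF-κB, on either strand; for Casp4 the first of its 2 listed starts is given.
Casp4, chr9:5308599-5308848, plus strand: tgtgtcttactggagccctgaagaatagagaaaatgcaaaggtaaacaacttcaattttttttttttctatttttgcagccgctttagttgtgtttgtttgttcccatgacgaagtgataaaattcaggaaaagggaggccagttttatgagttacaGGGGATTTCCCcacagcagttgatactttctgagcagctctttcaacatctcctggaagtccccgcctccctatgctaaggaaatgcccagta
Casp1, chr9:5298267-5298516, plus strand: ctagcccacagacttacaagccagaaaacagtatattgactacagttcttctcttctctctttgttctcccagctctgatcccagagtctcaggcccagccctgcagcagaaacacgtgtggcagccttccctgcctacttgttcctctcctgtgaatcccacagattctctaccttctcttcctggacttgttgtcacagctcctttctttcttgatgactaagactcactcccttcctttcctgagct
Casp12, chr9:5345226-5345475, plus strand: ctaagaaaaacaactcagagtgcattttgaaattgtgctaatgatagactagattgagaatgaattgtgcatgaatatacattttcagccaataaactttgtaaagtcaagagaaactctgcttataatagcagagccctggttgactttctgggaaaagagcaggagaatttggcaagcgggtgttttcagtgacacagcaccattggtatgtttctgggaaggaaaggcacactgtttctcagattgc
Aifm1, chrX:48513564-48513813, minus strand: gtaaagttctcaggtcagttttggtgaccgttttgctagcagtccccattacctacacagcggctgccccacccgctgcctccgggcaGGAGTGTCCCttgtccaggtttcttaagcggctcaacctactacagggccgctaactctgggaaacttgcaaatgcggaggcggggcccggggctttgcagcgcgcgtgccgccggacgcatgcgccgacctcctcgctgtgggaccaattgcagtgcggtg
The kappaB consensus was found for 5 of the 33 genes (Bcl2l1, Bbc3, Aifm1, Nlrp3 and Casp4), in 12.8% of their 47 promoters against 3.9% of all 32851 promoters of this length. In Casp4 the 2 matches overlap and begin 93 and 92 bases before the start. The windows of both listed Casp4 starts overlap and hold this same site, so it is counted for each of them among the 47 promoters. Aifm1, which fell after UUO, held 1 match as well, while Casp1 and Casp12 held none in this window. Of the other motifs searched on both strands, TGANTCA (AP-1) was found for 1 of the 33 genes, Fas, in 2.13% of promoters against 6.75% of all, TATAAA (the TATA box) for 2, in 4.26% against 12.4%, the decamer bound by p53 for 2, in 4.26% against 7.13%, and the core of the interferon-stimulated response element for 0, against 2.98%. GGGCGG (the GC box) was found for 20 of the 33 genes, in 53.2% of their promoters against 32.7% of all. These matches describe letters in these windows only.

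**Figure D2:**
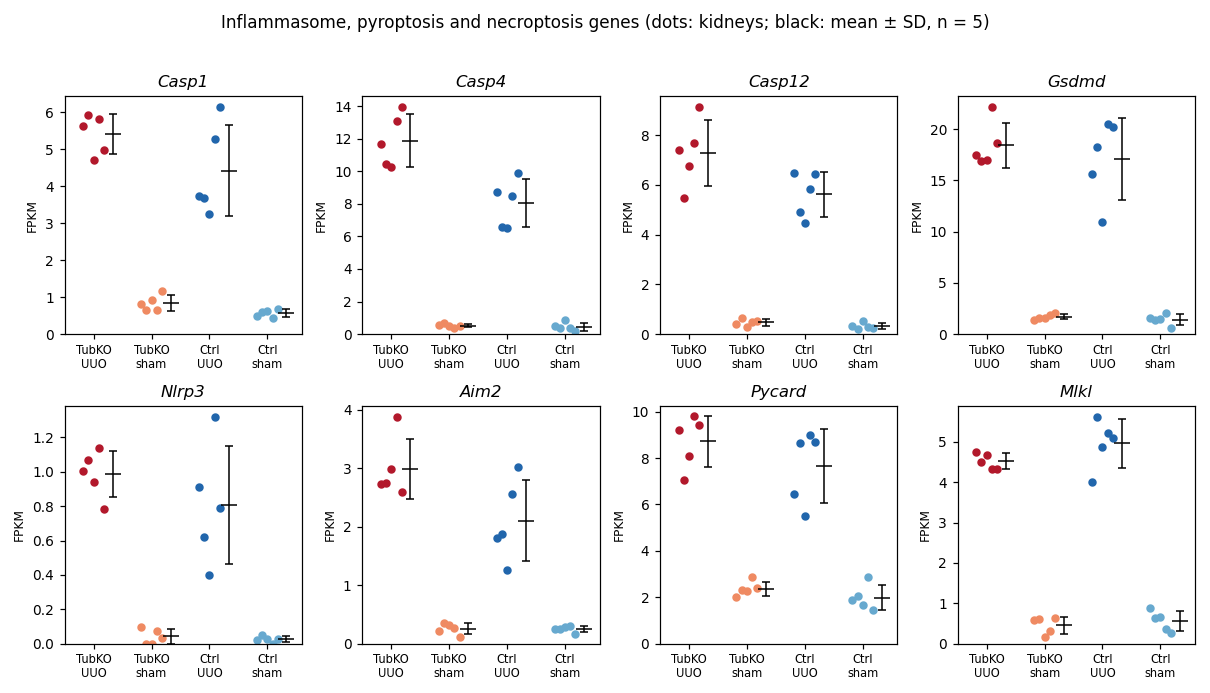
FPKM of 7 inflammasome and pyroptosis genes and of Mlkl in each kidney (dots) with mean ± SD (black, n = 5) for the 4 groups. UUO kidneys lie above sham kidneys in both genotypes, and for Casp4 the KDM6A-TubKO UUO kidneys (10.3 to 13.9 FPKM) lie above the KDM6A-Ctrl UUO kidneys (6.50 to 9.92 FPKM).

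Both necroptosis genes rose, but the rise of Ripk3 was built in, as it was in the table only through its UUO levels. The share of all genes that rose was 57.9% in KDM6A-TubKO and 56.7% in KDM6A-Ctrl mice. Mlkl encodes the pseudokinase that ruptures the plasma membrane, and had 4.74, 4.51, 4.68, 4.32 and 4.33 FPKM in KDM6A-TubKO UUO kidneys, against 0.584, 0.607, 0.167, 0.307 and 0.630 FPKM in KDM6A-TubKO sham kidneys. The values of Mlkl were 4.001, 5.62, 4.86, 5.23 and 5.10 FPKM in KDM6A-Ctrl UUO kidneys, against 0.875, 0.625, 0.666, 0.356 and 0.270 FPKM in KDM6A-Ctrl sham kidneys. All UUO kidneys were above all sham kidneys, with little spread in KDM6A-TubKO UUO kidneys. For Mlkl the log2 fold change was 1.93 ± 0.11 in KDM6A-TubKO mice (SE, adjusted p = 2.99e-11) and 1.94 ± 0.11 in KDM6A-Ctrl mice (SE, adjusted p = 4.2e-11). Ripk3, the kinase that phosphorylates Mlkl, averaged 2.38 ± 0.877 FPKM in KDM6A-TubKO UUO kidneys and 0.153 ± 0.0529 in KDM6A-TubKO sham kidneys (SD, n = 5 each). In KDM6A-Ctrl mice Ripk3 averaged 3.34 ± 0.433 FPKM after UUO and 0.201 ± 0.156 after sham surgery (SD, n = 5 each). Its log2 fold changes were 1.52 and 1.86. Ripk1, the kinase upstream of Ripk3, passed in neither genotype, with log2 fold changes of 0.11 in KDM6A-TubKO mice (adjusted p = 0.57) and 0.21 in KDM6A-Ctrl mice (adjusted p = 0.268).

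Among the BCL2-type inhibitors, Mcl1, Bcl2l1 and Bcl2 rose and Bcl2l2 did not pass, where 57.9% of all genes rose in KDM6A-TubKO and 56.7% in KDM6A-Ctrl mice. Mcl1, a short-lived inhibitor of Bak1 and Bax, had the highest level of all 37 genes in UUO kidneys of both genotypes. Mcl1 had 103, 103, 108, 120 and 133 FPKM in KDM6A-TubKO UUO kidneys, against 38.0, 42.3, 46.2, 47.3 and 47.6 FPKM in KDM6A-TubKO sham kidneys. In KDM6A-Ctrl mice Mcl1 had 118, 127, 102, 107 and 108 FPKM in UUO kidneys, against 51.9, 37.8, 43.0, 51.4 and 39.1 FPKM in sham kidneys. The UUO kidneys were all above the sham kidneys, and the genotypes overlapped within each surgery. The log2 fold change was 1.33 ± 0.10 in KDM6A-TubKO mice (SE, adjusted p = 8.18e-10) and 1.32 ± 0.10 in KDM6A-Ctrl mice (SE, adjusted p = 1.32e-09), that is 2.52-fold and 2.497-fold on that scale.

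Bcl2l1 encodes BCL-XL, an inhibitor in the mitochondrial membrane, and had 20.3, 20.8, 22.0, 17.4 and 24.5 FPKM in KDM6A-TubKO UUO kidneys, against 10.6, 7.43, 11.5, 15.5 and 9.95 FPKM in KDM6A-TubKO sham kidneys. KDM6A-Ctrl UUO kidneys had 21.4, 18.9, 10.99, 22.4 and 15.4 FPKM of Bcl2l1, against 8.90, 7.51, 7.76, 8.19 and 13.2 FPKM in KDM6A-Ctrl sham kidneys. In KDM6A-TubKO mice the surgeries did not overlap, while in KDM6A-Ctrl mice UUO mouse 3, the lowest of its group, lay below sham mouse 5, the highest of its group. Its log2 fold change by limma was 0.90 ± 0.19 in KDM6A-TubKO mice (SE, adjusted p = 0.000249) and 0.88 ± 0.19 in KDM6A-Ctrl mice (SE, adjusted p = 0.000349). Bcl2, the founding member of the family, rose by 0.82 in KDM6A-TubKO mice and 0.52 in KDM6A-Ctrl mice, but under quantile normalization it was -0.0105 in KDM6A-Ctrl mice. Bcl2l2 (BCL-W) had log2 fold changes of -0.56 (adjusted p = 0.256) and 0.13 (adjusted p = 0.794), with 1 very low kidney in each of 2 groups. Bcl2l2 overlaps another protein-coding gene on the same strand, Gm20521. In KDM6A-TubKO UUO mouse 2, Gm20521 had 1.96 FPKM, below only mouse 1 within the group's 0.630 to 2.05 FPKM. In KDM6A-Ctrl sham mouse 2 it had 1.27 FPKM, again below only mouse 1, within 0.993 to 1.72 FPKM. The part of Gm20521 in these low values of Bcl2l2 was not tested.

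Of the 7 BH3-only genes, 5 rose in both genotypes: Pmaip1, Bbc3, Bmf, Bik and Bcl2l11. Of all genes, 57.9% rose in KDM6A-TubKO mice and 56.7% in KDM6A-Ctrl mice. Pmaip1 (NOXA), which binds Mcl1, rose most. Pmaip1 had 22.8, 30.0, 28.7, 31.2 and 39.8 FPKM in KDM6A-TubKO UUO kidneys, against 2.71, 3.21, 3.0, 3.58 and 1.95 FPKM in KDM6A-TubKO sham kidneys. The values of Pmaip1 were 35.6, 60.9, 30.2, 28.6 and 36.6 FPKM in KDM6A-Ctrl UUO kidneys, against 3.14, 2.83, 6.98, 3.40 and 4.22 FPKM in KDM6A-Ctrl sham kidneys. All UUO kidneys were above all sham kidneys, and KDM6A-Ctrl UUO mouse 2 was the highest of the 20. For Pmaip1 the log2 fold change was 3.01 ± 0.21 in KDM6A-TubKO mice (SE, adjusted p = 2.64e-10) and 2.94 ± 0.21 in KDM6A-Ctrl mice (SE, adjusted p = 4.97e-10), that is 8.06-fold and 7.70-fold on that scale.

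Bbc3 encodes PUMA, an activator induced by p53, and had 6.70, 5.60, 5.24, 5.68 and 5.19 FPKM in KDM6A-TubKO UUO kidneys, against 0.720, 0.719, 0.658, 0.729 and 0.564 FPKM in KDM6A-TubKO sham kidneys. In KDM6A-Ctrl mice Bbc3 had 5.55, 6.66, 4.19, 6.38 and 6.75 FPKM in UUO kidneys, against 0.890, 0.657, 1.09, 1.36 and 0.779 FPKM in sham kidneys. The surgeries were again fully separate in both genotypes. The log2 fold change was 1.99 ± 0.11 in KDM6A-TubKO mice (SE, adjusted p = 1.71e-11) and 1.82 ± 0.11 in KDM6A-Ctrl mice (SE, adjusted p = 7.15e-11). Bmf, which senses loss of cell attachment, rose by 1.55 in KDM6A-TubKO mice and 1.26 in KDM6A-Ctrl mice. Bik, found mainly at the endoplasmic reticulum, rose by 1.43 and 1.39, with 19.99 ± 3.86 FPKM in KDM6A-TubKO UUO kidneys, against 6.79 ± 1.502 FPKM in KDM6A-TubKO sham kidneys (SD, n = 5 each). Bcl2l11 (BIM), a strong activator that binds all inhibitors of the family, rose by 0.60 in both genotypes, but by 0.02 and 0.03 under quantile normalization, where it passed in neither. These 5 genes therefore covered a range of sizes, with Pmaip1 at its top.

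Bid, which caspase-8 cuts to link death receptors to mitochondria, was the BH3-only gene that fell, and it was called in KDM6A-TubKO mice. Bid had 8.77, 10.6, 9.75, 9.04 and 10.9 FPKM in KDM6A-TubKO UUO kidneys, against 12.0, 10.97, 11.6, 13.8 and 10.2 FPKM in KDM6A-TubKO sham kidneys. KDM6A-Ctrl UUO kidneys had 12.5, 13.5, 12.3, 11.3 and 10.9 FPKM of Bid, against 12.3, 9.52, 14.3, 11.1 and 12.4 FPKM in KDM6A-Ctrl sham kidneys. The surgeries overlapped in both genotypes, and the lowest kidneys were 2 KDM6A-TubKO UUO kidneys. Its log2 fold change by limma was -0.23 ± 0.10 in KDM6A-TubKO mice (SE, adjusted p = 0.0355) and 0.03 ± 0.10 in KDM6A-Ctrl mice (SE, adjusted p = 0.818), and the interaction of genotype and surgery was -0.26 ± 0.14 (SE, adjusted p = 0.358), so a difference between the genotypes was not shown. Leaving out any of 6 single KDM6A-TubKO mice ended the call, with adjusted p of 0.0539 to 0.11, and with upper quartile rescaling Bid fell by 0.26 in KDM6A-Ctrl mice also. Bad, the BH3-only gene regulated by phosphorylation, passed in neither genotype, at -0.12 (adjusted p = 0.435) and 0.28 (adjusted p = 0.0825). In KDM6A-TubKO mice Bad was called lower after upper quartile rescaling (-0.41, adjusted p = 0.0162) and quantile normalization (-0.51, adjusted p = 0.00617), and in KDM6A-Ctrl mice it was called higher without UUO mouse 5 (0.36, adjusted p = 0.0322).

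Bak1, the pore-forming effector of the outer mitochondrial membrane, rose. Bak1 had 23.4, 18.2, 19.6, 16.1 and 17.9 FPKM in KDM6A-TubKO UUO kidneys, against 4.21, 7.51, 5.54, 6.39 and 4.67 FPKM in KDM6A-TubKO sham kidneys. The values of Bak1 were 26.1, 21.4, 16.6, 22.9 and 19.8 FPKM in KDM6A-Ctrl UUO kidneys, against 5.77, 7.85, 7.80, 7.495 and 6.09 FPKM in KDM6A-Ctrl sham kidneys. All UUO kidneys were above all sham kidneys. For Bak1 the log2 fold change was 1.60 ± 0.14 in KDM6A-TubKO mice (SE, adjusted p = 4.77e-09) and 1.48 ± 0.14 in KDM6A-Ctrl mice (SE, adjusted p = 1.86e-08). Inhibitors, BH3-only genes and the effector thus all included genes that rose, and RNA levels do not give the balance between the proteins.

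All 3 IAP genes, which encode inhibitors of caspases and ubiquitin ligases of death-receptor signalling, rose, although the call of Xiap in KDM6A-TubKO mice depended on the scaling. Beside them, 57.9% of all genes rose in KDM6A-TubKO mice and 56.7% in KDM6A-Ctrl mice. Birc3 and Birc2, which encode cIAP2 and cIAP1, lie next to each other on chromosome 9 within 55.0 kb (chr9:7848699-7873186 and chr9:7818227-7837064, GRCm38). Birc3 had 26.5, 17.7, 23.1, 22.4 and 22.3 FPKM in KDM6A-TubKO UUO kidneys, against 1.38, 1.64, 1.87, 2.19 and 1.67 FPKM in KDM6A-TubKO sham kidneys. In KDM6A-Ctrl mice Birc3 had 15.7, 13.8, 13.4, 17.6 and 19.4 FPKM in UUO kidneys, against 3.09, 2.05, 2.63, 1.49 and 1.40 FPKM in sham kidneys. The surgeries were far apart in both genotypes, while the UUO kidneys of the 2 genotypes overlapped. The log2 fold change was 3.08 ± 0.14 in KDM6A-TubKO mice (SE, adjusted p = 3.79e-12) and 2.46 ± 0.14 in KDM6A-Ctrl mice (SE, adjusted p = 5.03e-11), and the interaction was 0.62 ± 0.20 (SE, adjusted p = 0.164).

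Birc2 had 30.7, 29.6, 33.2, 35.3 and 43.8 FPKM in KDM6A-TubKO UUO kidneys, against 6.74, 6.90, 6.57, 6.75 and 7.70 FPKM in KDM6A-TubKO sham kidneys. KDM6A-Ctrl UUO kidneys had 32.5, 28.5, 23.4, 30.6 and 29.4 FPKM of Birc2, against 6.82, 5.33, 6.78, 7.15 and 6.30 FPKM in KDM6A-Ctrl sham kidneys. Birc2 was the second highest of the 37 genes in KDM6A-TubKO UUO kidneys, and no UUO kidney came near a sham kidney. Its log2 fold change by limma was 2.15 ± 0.10 in KDM6A-TubKO mice (SE, adjusted p = 4.01e-12) and 2.00 ± 0.10 in KDM6A-Ctrl mice (SE, adjusted p = 1.68e-11). Xiap, the direct inhibitor of the executioner caspases, rose by 0.76 in KDM6A-TubKO mice and 0.92 in KDM6A-Ctrl mice, and in KDM6A-Ctrl mice its groups overlapped with UUO mouse 2 below 3 sham mice. In KDM6A-TubKO mice Xiap did not pass after upper quartile rescaling (0.47, adjusted p = 0.0692) or quantile normalization (0.35, adjusted p = 0.16).

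**Figure D3:**
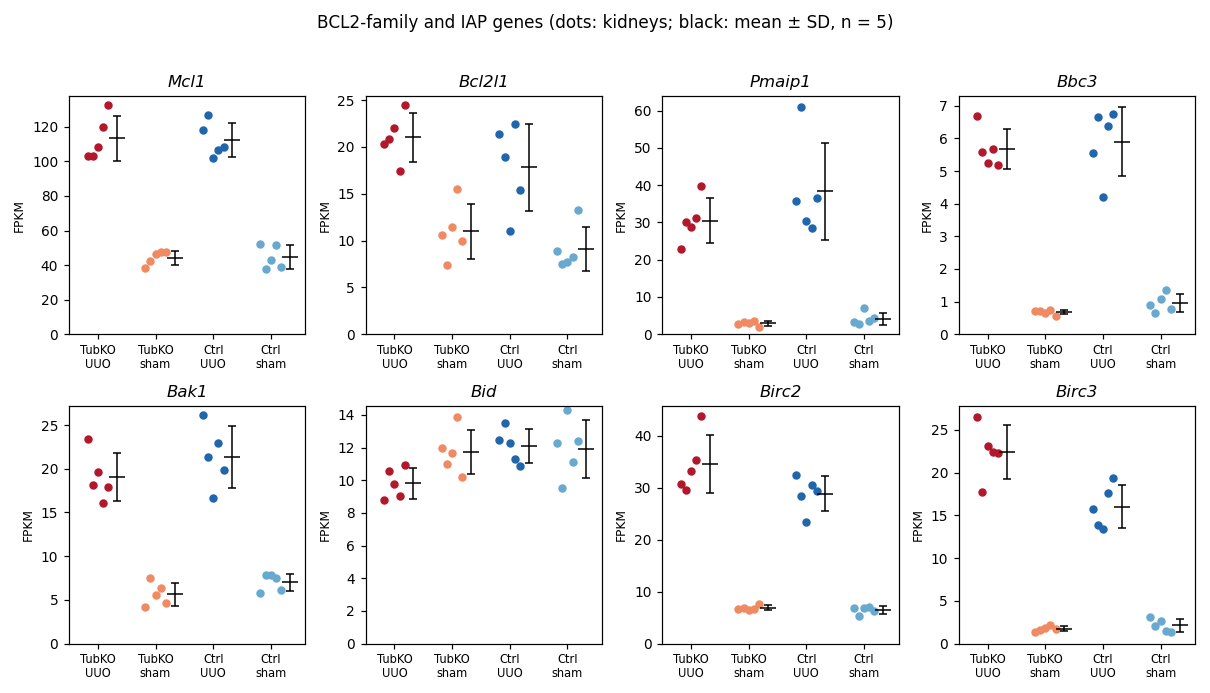
FPKM of 8 BCL2-family and IAP genes in each kidney (dots) with mean ± SD (black, n = 5) for the 4 groups. Mcl1 lies above 100 FPKM in every UUO kidney, Birc2 and Birc3 are higher in every UUO kidney than in any sham kidney, and Bid overlaps between all 4 groups.

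The mitochondrial genes went in both directions, with 2 rising, 2 falling and 1 not passing in each genotype. Of all genes, 57.9% rose and 16.7% fell in KDM6A-TubKO mice, and 56.7% rose and 15.1% fell in KDM6A-Ctrl mice. Aifm1 (chrX:48474944-48513563, GRCm38) encodes a flavoprotein of the mitochondrial intermembrane space that maintains the respiratory chain and moves to the nucleus in caspase-independent death. Aifm1 had 16.4, 24.0, 20.2, 16.9 and 14.1 FPKM in KDM6A-TubKO UUO kidneys, against 43.6, 49.9, 45.0, 46.2 and 41.7 FPKM in KDM6A-TubKO sham kidneys. The values of Aifm1 were 23.4, 19.4, 26.3, 19.99 and 18.3 FPKM in KDM6A-Ctrl UUO kidneys, against 43.6, 46.8, 47.4, 45.9 and 51.1 FPKM in KDM6A-Ctrl sham kidneys. All UUO kidneys were below all sham kidneys. For Aifm1 the log2 fold change was -1.28 ± 0.11 in KDM6A-TubKO mice (SE, adjusted p = 7.68e-09) and -1.10 ± 0.11 in KDM6A-Ctrl mice (SE, adjusted p = 7.4e-08), so the level was 2.43-fold lower in KDM6A-TubKO UUO kidneys and 2.15-fold lower in KDM6A-Ctrl UUO kidneys on that scale.

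Endog encodes a mitochondrial nuclease that can degrade nuclear DNA in cell death, and had 15.2, 18.8, 14.4, 17.0 and 13.2 FPKM in KDM6A-TubKO UUO kidneys, against 34.9, 27.0, 29.8, 24.1 and 27.7 FPKM in KDM6A-TubKO sham kidneys. In KDM6A-Ctrl mice Endog had 16.2, 15.7, 12.4, 15.8 and 15.8 FPKM in UUO kidneys, against 21.4, 26.9, 23.5, 24.6 and 23.6 FPKM in sham kidneys. As with Aifm1, each UUO kidney lay below each sham kidney of its genotype. The log2 fold change was -0.83 ± 0.10 in KDM6A-TubKO mice (SE, adjusted p = 5.66e-07) and -0.63 ± 0.10 in KDM6A-Ctrl mice (SE, adjusted p = 1.94e-05). These falls went with those of the 15 proximal tubule markers, whose summed level was 3182 to 7336 FPKM in KDM6A-TubKO UUO kidneys and 17585 to 27123 FPKM in KDM6A-TubKO sham kidneys. In KDM6A-Ctrl mice that sum was 3944 to 11352 FPKM in UUO kidneys and 15004 to 23474 FPKM in sham kidneys, with no marker at 0 in any library, and the part of proximal tubule RNA in the falls was not tested.

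Apaf1, the scaffold of the apoptosome, was low in all groups and rose in both genotypes, with log2 fold changes of 0.65 in KDM6A-TubKO mice and 0.56 in KDM6A-Ctrl mice, but of 0.11 and 0.02 under quantile normalization. Diablo (SMAC), which relieves caspases of IAP proteins, was called higher at 0.26 and 0.45, but in KDM6A-TubKO mice it was -0.0176 after upper quartile rescaling and -0.18 after quantile normalization, and in KDM6A-Ctrl mice it no longer passed after the second (0.03, adjusted p = 0.697). Diablo overlaps Gm49027 on the same strand. Casp9, the caspase activated on the apoptosome, passed in neither genotype, at -0.22 (adjusted p = 0.465) and 0.11 (adjusted p = 0.725), but it was called lower in KDM6A-TubKO mice under quantile normalization (-0.72, adjusted p = 0.0241).

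Of the 6 death receptor genes, Casp8, Tradd and Fas rose in both genotypes, while Fadd, Ripk1 and Cflar did not pass. The share of all genes that rose was 57.9% in KDM6A-TubKO mice and 56.7% in KDM6A-Ctrl mice. Tradd encodes the adaptor of TNF receptor 1, and had 12.5, 9.18, 9.94, 11.3 and 10.4 FPKM in KDM6A-TubKO UUO kidneys, against 6.14, 6.02, 5.96, 4.30 and 5.55 FPKM in KDM6A-TubKO sham kidneys. KDM6A-Ctrl UUO kidneys had 9.40, 10.7, 7.85, 10.9 and 11.5 FPKM of Tradd, against 4.69, 5.55, 4.96, 5.42 and 5.12 FPKM in KDM6A-Ctrl sham kidneys. All UUO kidneys were above all sham kidneys. Its log2 fold change by limma was 0.82 ± 0.10 in KDM6A-TubKO mice (SE, adjusted p = 5.63e-07) and 0.84 ± 0.10 in KDM6A-Ctrl mice (SE, adjusted p = 5.5e-07).

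Casp8 encodes the initiator caspase of death receptors, which also restrains necroptosis, and had 21.0, 25.8, 28.2, 28.2 and 30.2 FPKM in KDM6A-TubKO UUO kidneys, against 14.8, 15.2, 13.1, 11.5 and 15.6 FPKM in KDM6A-TubKO sham kidneys. The values of Casp8 were 22.8, 22.4, 26.0, 22.1 and 22.5 FPKM in KDM6A-Ctrl UUO kidneys, against 17.2, 15.0, 18.8, 13.6 and 12.8 FPKM in KDM6A-Ctrl sham kidneys. The surgeries were separate in both genotypes, and the lowest UUO kidney was a KDM6A-TubKO one. For Casp8 the log2 fold change was 0.88 ± 0.11 in KDM6A-TubKO mice (SE, adjusted p = 5.49e-07) and 0.56 ± 0.11 in KDM6A-Ctrl mice (SE, adjusted p = 0.00013). Cflar, which encodes the Casp8 inhibitor c-FLIP and lies beside Casp8 on chromosome 1 (chr1:58711508-58758884 and chr1:58795374-58847503, GRCm38), had log2 fold changes of 0.09 (adjusted p = 0.729) and 0.12 (adjusted p = 0.663). In KDM6A-TubKO UUO mouse 4 Cflar was at 3.95 FPKM against 12.1 to 16.8 FPKM in the other 4, and without that mouse it rose by 0.42 (adjusted p = 0.00156). Fas, the death receptor, rose by 0.48 and 0.51, and lost its call in both genotypes after upper quartile rescaling. Fadd, the adaptor that recruits Casp8, averaged 4.47 ± 0.242 FPKM in KDM6A-TubKO UUO kidneys and 3.89 ± 0.302 in KDM6A-TubKO sham kidneys (SD, n = 5 each), with adjusted p of 0.136 and, in KDM6A-Ctrl mice, 0.267. It was called higher in KDM6A-Ctrl mice without UUO mouse 2 (0.22, adjusted p = 0.0154) and in KDM6A-TubKO mice when the KDM6A-Ctrl groups were left out of the fit (0.16, adjusted p = 0.0489). Under quantile normalization Fadd was called lower at -0.35 in both genotypes.

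Casp2, a caspase activated by DNA damage, and Casp6, an executioner caspase, were called higher in both genotypes. So were 57.9% of all genes in KDM6A-TubKO mice and 56.7% in KDM6A-Ctrl mice. Casp2 had 1.06, 0.429, 2.24, 1.81 and 1.00 FPKM in KDM6A-TubKO UUO kidneys, against 0.265, 0.700, 0.630, 0.313 and 0.481 FPKM in KDM6A-TubKO sham kidneys. In KDM6A-Ctrl mice Casp2 had 3.48, 3.17, 3.18, 0.429 and 2.34 FPKM in UUO kidneys, against 1.28, 0.757, 1.36, 0.623 and 0.618 FPKM in sham kidneys. Levels were low and the surgeries overlapped in both genotypes. The log2 fold change was 0.60 ± 0.26 in KDM6A-TubKO mice (SE, adjusted p = 0.0468) and 0.78 ± 0.26 in KDM6A-Ctrl mice (SE, adjusted p = 0.0122). Leaving out any of 8 single KDM6A-TubKO mice ended the call in that genotype, with adjusted p of 0.0532 to 0.132, and under quantile normalization Casp2 passed in neither genotype (0.05 in KDM6A-TubKO and 0.23 in KDM6A-Ctrl mice, adjusted p = 0.88 and 0.448). Casp6 had log2 fold changes of 0.49 and 0.57, with separate groups in both genotypes, but of -0.00334 and 0.13 under quantile normalization.

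**Figure D4:**
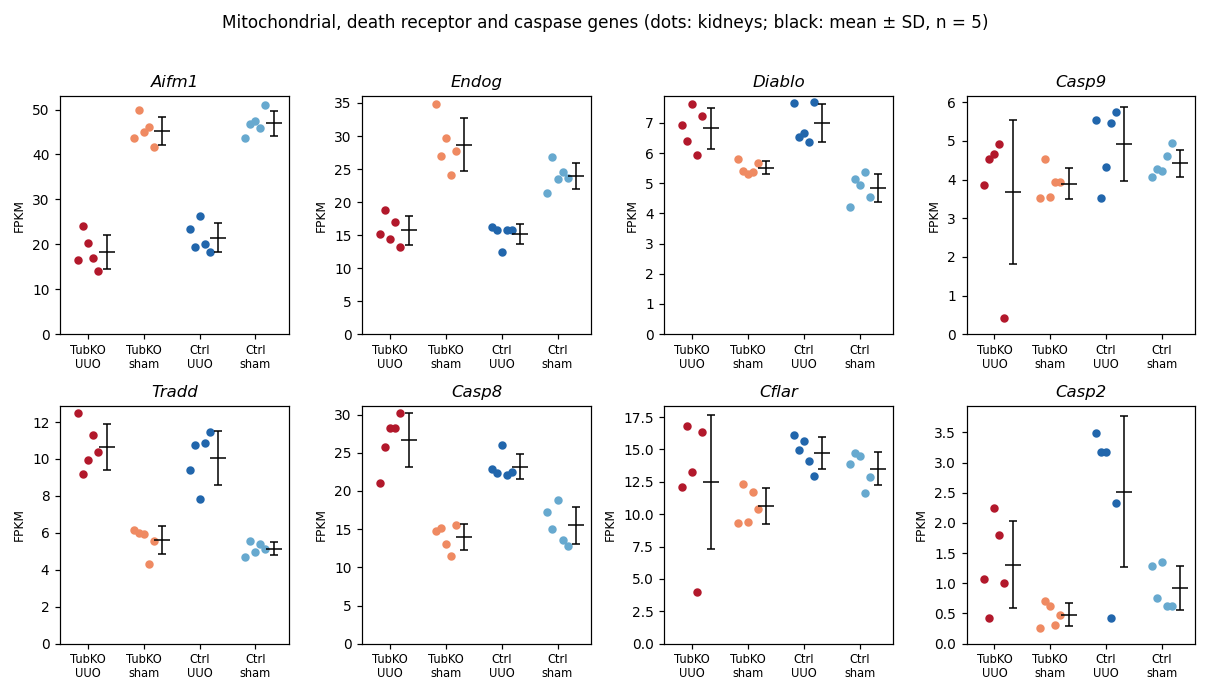
FPKM of 8 mitochondrial, death receptor and caspase genes in each kidney (dots) with mean ± SD (black, n = 5) for the 4 groups. Aifm1 and Endog are lower in every UUO kidney than in any sham kidney of the same genotype, Tradd and Casp8 are higher, and Casp9 and Cflar each have 1 low KDM6A-TubKO UUO kidney, at 0.414 and 3.95 FPKM.

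The levels themselves changed order with surgery. In KDM6A-TubKO UUO kidneys the highest mean was that of Mcl1 (113 ± 12.9 FPKM), followed by Birc2 (34.5 ± 5.64), Pmaip1 (30.5 ± 6.13) and Casp8 (26.7 ± 3.53; SD, n = 5 each), of which only Mcl1 stood clear of its neighbour. In KDM6A-TubKO sham kidneys Aifm1 (45.3 ± 3.07 FPKM) and Mcl1 (44.3 ± 4.10) came first and overlapped, before Endog (28.7 ± 4.01) and Casp8 (14.0 ± 1.71; SD, n = 5 each), which stood apart from each other. In KDM6A-Ctrl UUO kidneys Mcl1 (112 ± 9.93 FPKM) was followed by Pmaip1 (38.4 ± 13.05), Birc2 (28.9 ± 3.41) and Casp8 (23.2 ± 1.62; SD, n = 5 each), the last 3 overlapping in turn. In KDM6A-Ctrl sham kidneys the first 4 were again Aifm1 (46.9 ± 2.74 FPKM), Mcl1 (44.6 ± 6.70), Endog (24.0 ± 1.96) and Casp8 (15.5 ± 2.48; SD, n = 5 each).

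The second comparison, KDM6A-TubKO against KDM6A-Ctrl, asked whether loss of Kdm6a from tubules changed these genes. In sham kidneys limma called 0 of the 37 genes, against 1.94% of all genes called higher and 3.89% called lower, and the genotypes were separate for 0, against 2.82% upwards and 4.88% downwards. At an unadjusted p under 0.05, 2 genes were higher (Endog and Diablo) and 1 lower (Bcl2l11), against 8.39% and 13.1% of all genes. The Ballgown-like F-test and every other alternative tried also called 0 in sham kidneys.

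In UUO kidneys 1 of the 37 genes was called higher and 0 lower, against 2.58% and 3.07% of all genes, and the genotypes were separate upwards for the same 1 gene and downwards for 0, against 2.34% and 3.11%. That gene was Casp4, whose KDM6A-TubKO UUO kidneys (11.7, 10.4, 10.3, 13.1 and 13.9 FPKM) all lay above the KDM6A-Ctrl UUO kidneys (8.74, 6.57, 6.50, 8.47 and 9.92 FPKM). The gap between the nearest kidneys, 10.3 and 9.92 FPKM, was small. The means were 11.9 ± 1.61 FPKM in KDM6A-TubKO and 8.04 ± 1.48 FPKM in KDM6A-Ctrl UUO kidneys (SD, n = 5 each), a log2 fold change of 0.52 ± 0.12 (SE, adjusted p = 0.0227), or 1.43-fold on that scale. In sham kidneys Casp4 differed by 0.07 ± 0.12 (SE, adjusted p = 0.843), and the interaction was 0.45 ± 0.17 (SE, adjusted p = 0.221), so the genotype difference was not shown to depend on surgery. The Casp4 call was lost with a pseudocount of 0.1 (adjusted p = 0.144), with only the UUO groups in the fit (0.103), with array weights (0.0546), in the Ballgown-like F-test (0.0907) and without any 1 of 4 mice (KDM6A-TubKO UUO 4 or 5, KDM6A-Ctrl UUO 2 or 3; 0.057 to 0.0667). Beside it, 6 of 18 macrophage and monocyte markers were called higher in KDM6A-TubKO UUO kidneys, 0 lower, with overlapping sums of 753 to 1165 FPKM in KDM6A-TubKO and 617 to 1323 FPKM in KDM6A-Ctrl UUO kidneys, and 5 of 10 urothelial markers were called lower, with sums of 130 to 359 FPKM in KDM6A-TubKO and 221 to 1715 FPKM in KDM6A-Ctrl UUO kidneys. Of 7 endothelial markers 2 were called higher and 0 lower, and their sums did not overlap, at 65.6 to 80.8 FPKM in KDM6A-TubKO and 46.8 to 65.4 FPKM in KDM6A-Ctrl UUO kidneys, while 1 of 9 fibroblast markers was called lower. No marker of these 4 lists was called in sham kidneys, and the part of any of them in the Casp4 difference was not tested.

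**Figure D5:**
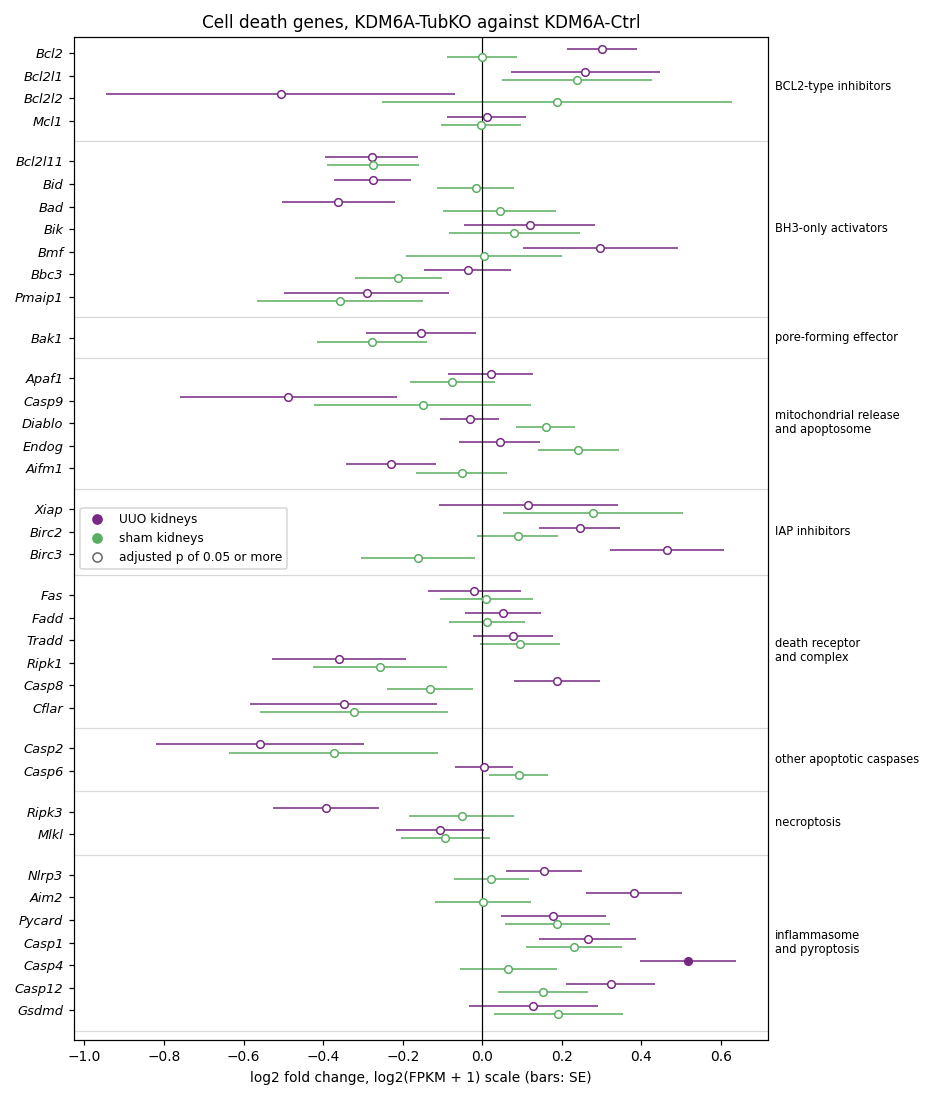
Log2 fold change of the 37 genes in KDM6A-TubKO against KDM6A-Ctrl kidneys on the log2(FPKM + 1) scale, with purple for UUO kidneys, green for sham kidneys and bars for the SE. Only Casp4 in UUO kidneys (0.52) is filled, for an adjusted p under 0.05.

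At an unadjusted p under 0.05, 7 genes were higher in KDM6A-TubKO UUO kidneys and 6 lower, against 12.3% and 12.3% of all genes. The 7 were Casp4, Casp12, Casp1 and Aim2 of the inflammasome list, the IAP genes Birc3 and Birc2, and Bcl2, with log2 fold changes of 0.24 to 0.52. The 6 were the BH3-only genes Bid, Bad and Bcl2l11, the kinases Ripk3 and Ripk1, and Casp2, with log2 fold changes of -0.56 to -0.28. Apart from Casp4 none passed after adjustment, and the nearest were Bcl2 (adjusted p = 0.0515), Birc3 (adjusted p = 0.0604), Aim2 (adjusted p = 0.0643) and Ripk3 (adjusted p = 0.0822). Bcl2 had 4.99, 3.31, 3.92, 4.52 and 4.28 FPKM in KDM6A-TubKO UUO kidneys, against 3.41, 2.88, 2.66, 3.44 and 3.70 FPKM in KDM6A-Ctrl UUO kidneys. The ranges of Bcl2 overlapped between the genotypes, as did those of Birc3, Aim2 and Ripk3.

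The interaction of genotype and surgery, which asks whether the UUO response differed between genotypes, was called by limma for 0 of the 37 genes, against 0.0144% of all genes in the positive and 0.0144% in the negative direction. At an unadjusted p under 0.05 it was positive for 4 (Birc3, Casp4, Bcl2 and Aim2) and negative for 0, against 9.12% and 6.57% of all genes. The Ballgown-like F-test called 0.

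The rest of the cell death pathways was read from a list of 62 further genes, of which 51 were in the table. In KDM6A-TubKO mice 36 of the 51 rose after UUO and 7 fell, with a median log2 fold change of 0.70, and in KDM6A-Ctrl mice 32 rose and 6 fell, with a median of 0.57. Over all genes 57.9% rose and 16.7% fell with a median of 0.39 in KDM6A-TubKO mice, and 56.7% rose and 15.1% fell with a median of 0.35 in KDM6A-Ctrl mice. The largest rises were those of Bcl2a1b, Bcl2a1d and Bcl2a1a, which encode the leukocyte inhibitor A1 and are near-identical copies, so that reads may be split among them. Bcl2a1b averaged 30.7 ± 6.43 FPKM in KDM6A-TubKO UUO kidneys and 1.10 ± 0.287 in KDM6A-TubKO sham kidneys (SD, n = 5 each), a log2 fold change of 3.90. The largest falls were those of Nlrp6, a sensor of epithelial cells (-2.55 in KDM6A-TubKO and -2.05 in KDM6A-Ctrl mice), Cycs, cytochrome c (-0.69 and -0.69), and Bnip3, a mitochondrial BH3-like gene (-0.65 and -0.67). Bax, the partner of Bak1, named after its values were seen, rose by 0.46 in KDM6A-TubKO mice and by 0.73 in KDM6A-Ctrl mice.

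Between genotypes, the 51 genes held 0 higher and 1 lower in sham kidneys, against 1.94% and 3.89% of all genes, and 2 higher and 1 lower in UUO kidneys, against 2.58% and 3.07%. In sham kidneys the gene was Txnip, an inhibitor of thioredoxin (-0.91, adjusted p = 0.0265). In UUO kidneys Naip5, a sensor of bacterial flagellin (0.41, adjusted p = 0.0424), and Card9, a signalling adaptor of myeloid cells (0.37, adjusted p = 0.041), were higher and Parp1, which signals DNA breaks (-0.29, adjusted p = 0.0319), was lower in KDM6A-TubKO kidneys.

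The transcript table held 73 transcripts of the 37 genes. In KDM6A-TubKO mice 29 rose after UUO and 3 fell, against 28.1% and 11.7% of all 26228 transcripts, and in KDM6A-Ctrl mice 27 rose and 3 fell, against 26.5% and 9.83%. Mlkl had 2 transcripts. Mlkl-202 averaged 4.70 ± 0.927 FPKM in KDM6A-TubKO UUO kidneys and 0.304 ± 0.311 in KDM6A-TubKO sham kidneys, and 4.15 ± 0.988 FPKM in KDM6A-Ctrl UUO kidneys and 0.170 ± 0.247 in KDM6A-Ctrl sham kidneys (SD, n = 5 each). Its log2 fold change was 2.14 in both genotypes (adjusted p = 6.86e-08 and 9.08e-08), while Mlkl-201 had 0.23 (adjusted p = 0.47) and 0.29 (adjusted p = 0.367). The share of Mlkl-202 averaged 92.7% in KDM6A-TubKO UUO kidneys and 59.5% in KDM6A-TubKO sham kidneys, and 84.4% in KDM6A-Ctrl UUO kidneys and 36.0% in KDM6A-Ctrl sham kidneys, but single sham kidneys ran over the whole range of 0 to 100% at these low levels. The share of Mlkl-201, its complement, moved by -33.1 and -48.3 points. Xiap-201 was the only further transcript whose share moved by 20 points or more in the same direction in both genotypes, by 24.9 and 20.3 points upwards, and its level passed in neither (adjusted p = 0.0797 and 0.099).

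Between genotypes in UUO kidneys, 0 of the 73 transcripts were higher and 2 lower in KDM6A-TubKO mice, against 0.297% and 0.839% of all transcripts. These were Bcl2l1-204 (adjusted p = 0.0142) and Bbc3-202 (log2 fold change -0.59, adjusted p = 0.00418). Bcl2l1-204 was listed at 0 FPKM in all 5 KDM6A-TubKO UUO kidneys, against 0.719 to 2.44 FPKM in KDM6A-Ctrl UUO kidneys, so no fold is given. Bbc3-202 had 0 to 0.227 FPKM in KDM6A-TubKO UUO kidneys, against 0.495 to 0.684 FPKM in KDM6A-Ctrl UUO kidneys. The genes Bcl2l1 (0.26, adjusted p = 0.411) and Bbc3 (-0.04, adjusted p = 0.872) did not pass, and StringTie estimates how reads are shared among transcripts, so these values are less certain than those of genes.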

How the data were processed

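RNA was measured in whole left kidneys of 20 mice, 5 in each of 4 groups taken from the sample labels. The authors prepared stranded poly(A) libraries, trimmed paired reads with cutadapt, aligned them to GRCm38 with HISAT2 and estimated gene and transcript FPKM with StringTie; tool versions are not given in the sources used here. The deposited tables hold these FPKM without counts, so depth per library is unknown and no counting interval is given.

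FPKM were tested as log2(FPKM + 1) with limma 3.58.1 (R 4.3.3, empirical Bayes with a trend), with a mean for each of the 4 groups in one fit and Benjamini-Hochberg adjustment over 13842 genes or 26228 transcripts. Genes needed a mean of 0.5 FPKM in at least 1 group, which removed 0. Every adjusted p in the text is from this fit unless another test is named. The method was tested on simulated data. Alternatives were a pseudocount of 0.1, a mean of 1 FPKM or no filter, upper quartile rescaling, quantile normalization, only the compared groups, array weights, an F-test after Ballgown's description, the number series in the mouse identifiers as a covariate, the study's threshold (fold of 1.5 and unadjusted p under 0.05) and each mouse left out.

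The 37 genes, the other gene lists and the marker lists were chosen with earlier results of these data known. Values per kidney are given for genes called between genotypes, genes that fell after UUO, and the 1 or 2 genes of each role with the largest mean change in both genotypes. Of the 51 other cell death genes, the 3 largest rises and falls and those called between genotypes are named, and of transcripts those whose share moved by 20 points or more in both genotypes or that were called between genotypes in UUO kidneys. Loci are from GENCODE (GRCm38); 18 of the 37 genes overlap another annotated gene, 2 of them (Bcl2l2 and Diablo) a protein-coding gene on the same strand. Figures were drawn with matplotlib 3.10.9.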

Additional observations from a re-analysis of the deposited data

Results flagged for a closer look

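In 10 of 148 sets of 5 kidneys (37 genes in 4 groups), the highest or lowest kidney was far from the other 4 (Dixon's test at 95%). Chance flags about 1 in 20 such sets, which is 7.4 here. Bcl2l2 was low in KDM6A-TubKO UUO mouse 2, at 0.752 FPKM against 9.07 to 11.3 FPKM in the other 4, and in KDM6A-Ctrl sham mouse 2, at 2.61 FPKM against 11.6 to 12.4 FPKM. Casp9 was low in KDM6A-TubKO UUO mouse 5, at 0.414 FPKM against 3.85 to 4.93 FPKM. KDM6A-Ctrl UUO mouse 2 had 60.9 FPKM of Pmaip1 against 28.6 to 36.6 FPKM in the others, and 5.40 FPKM of Xiap against 9.96 to 10.6 FPKM. KDM6A-Ctrl UUO mouse 3 had 12.4 FPKM of Endog against 15.7 to 16.2 FPKM, and 26.0 FPKM of Casp8 against 22.1 to 22.8 FPKM. Bcl2l1 was high in KDM6A-Ctrl sham mouse 5, at 13.2 FPKM against 7.51 to 8.90 FPKM. KDM6A-Ctrl sham mouse 3, whose injured-tubule markers were also high, had 1.20 FPKM of Bmf against 1.77 to 1.99 FPKM and 0.468 FPKM of Ripk3 against 0.0778 to 0.190 FPKM.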

How the results depend on the processing

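Of the 37 genes, 28 rose after UUO in each genotype and 3 (KDM6A-TubKO) and 2 (KDM6A-Ctrl) fell, where 16.7% and 15.1% of all genes fell. Quantile normalization gave 7 and 4 that fell, where 34.9% and 35.0% of all genes fell. Casp4 was the 1 gene higher in KDM6A-TubKO than KDM6A-Ctrl UUO kidneys, where 2.58% of all genes were higher. This became 0 genes with a pseudocount of 0.1 (1.06% of all genes), with array weights (0.824%) and with only the compared groups (where 1 gene of all was called). The Ballgown-like F-test (0.0144%) and the study's threshold (0.99%) also gave 0. The filter at 1 FPKM gave 2 genes (2.65% of all genes). Upper quartile rescaling (3.16%) and the number series as a covariate (2.79%) gave 3 each, and quantile normalization gave 5 (4.81%). The study's threshold, which uses an unadjusted p, gave 1 gene, Birc3, with a positive interaction, against 0 at the adjusted p. At the study's threshold 1.25% of all genes had a positive and 1.68% a negative interaction. Leaving out single mice gave 27 to 28 genes that rose and 2 to 3 that fell in KDM6A-TubKO mice, 28 to 29 and 2 in KDM6A-Ctrl mice, 0 to 5 higher and 0 to 1 lower between genotypes in UUO kidneys, and 0 in sham kidneys and for the interaction. Of all genes in these fits, 56.3% to 57.4% rose in KDM6A-TubKO mice and 54.4% to 56.1% in KDM6A-Ctrl mice. Between genotypes in UUO kidneys, 0.615% to 5.29% of all genes were higher and 0.861% to 4.11% lower. The 5 came without KDM6A-Ctrl UUO mouse 5 (Casp4, Bcl2, Birc3, Aim2 and Casp1); without KDM6A-TubKO UUO mouse 1 or 3, Ripk3 was called lower, and without KDM6A-Ctrl UUO mouse 4, Casp2 was called lower (-0.86, adjusted p = 0.023).

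Some log2 fold changes after UUO took the other sign. In KDM6A-TubKO mice Diablo was -0.0176 after upper quartile rescaling, and Diablo was -0.18, Fadd -0.35 and Casp6 -0.00334 after quantile normalization. In KDM6A-Ctrl mice Bid was -0.26 after upper quartile rescaling, and Bid was -0.28, Fadd -0.35 and Bcl2 -0.0105 after quantile normalization. The Ballgown-like F-test called 0 genes that rose and 0 that fell in either genotype, and only 1 and 0 of all genes; its library-size covariate was 1.08 to 1.15 in UUO and 0.862 to 0.910 in sham kidneys and so carries the surgery itself. In that test, with none of these passing, Bcl2 was -0.24, Bcl2l11 -1.64, Bmf -0.84, Bak1 -1.73, Diablo -0.17, Endog 1.34, Xiap -1.36, Fas -0.76, Casp2 -1.89 and Ripk3 -0.48 in KDM6A-TubKO mice. The same test in KDM6A-Ctrl mice gave Bcl2 -0.42, Bcl2l11 -0.64, Bik -0.28, Bmf -1.08, Apaf1 -0.49, Aifm1 0.15, Xiap -0.11, Nlrp3 -0.18 and Aim2 -0.66. Apart from the covariate, the cause of these changes was not tested. Without counts, the precision of genes under 1 FPKM is unknown. The labels name no batch. The identifier series was tried as a covariate, but the full identifier numbers each lie within a single group and cannot be told apart from it.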
